A study of Sus scrofa with 4 samples.

Results

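Retinoic acid, the signalling form of vitamin A, is made by aldehyde dehydrogenases, degraded by cytochrome P450 enzymes of the CYP26 family and read by nuclear receptors. This account follows 10 genes of that route, chosen by name: the receptors RARA, RARB, RARG, RXRA and RXRB, the synthetic enzymes ALDH1A1 and ALDH1A2, the breakdown enzyme CYP26B1 and the cytoplasmic binding proteins CRABP1 and CRABP2. They are 10 of 26921 rows in the deposited gene tables. Their own symbols named 9 of those rows. CYP26B1 stood under the identifier LOC100521659 and was found through the gene name that the tables pair with it.

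RNA was sequenced from cultured pig testis cells labelled as immature spermatogonia, the germ cells that precede meiosis. The control group, 2 libraries, carries the genotype label WT, and the labels do not say whether those cells received a vector. The other group, 2 libraries, carries the genotype label ZBTB16 knockdown. By the study's plan the hairpin RNA against ZBTB16 is delivered by lentiviral transduction, so the virus and the loss of ZBTB16 cannot be told apart. Per the labels the RNA samples came from 2 independent experiments. The p-values rest on the spread between these libraries alone, and that spread may be technical.

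ZBTB16, also known as PLZF, is a transcriptional repressor that maintains undifferentiated spermatogonia, and a fusion of it with RARA occurs in a form of human leukaemia. RAR receptors bind retinoic acid and sit on DNA as pairs with an RXR receptor, without ligand together with corepressors and with ligand together with coactivators. In the testis retinoic acid starts spermatogonial differentiation and meiosis. CYP26B1 is known for keeping retinoic acid away from germ cells in the fetal testis.

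The DNA these receptors read is a direct repeat of a short hexamer. The repeats with a spacer of 5 bases in the receptor genes are shown because the RAR genes are textbook targets of the receptors. In human and mouse the inducible promoter of RARB holds such a repeat, and related repeats are known at inducible promoters of RARA and RARG. Hexamers were searched as the consensus AGGTCA, as the variant AGTTCA, as the variant GGGTCA and as the variant GGTTCA, on both strands of the pig genome (Sscrofa11.1), in each gene and 5000 bases on either side. Each of the 5 receptor genes held exactly 1 repeat with this spacer. The other 5 genes held 0. The sequences run 5′ to 3′ on the strand of the match, with 20 bases on either side and the hexamers in capitals. The first lies at chr12:22063926-22063942 (minus strand), the second at chr13:12336550-12336566 (plus), the third at chr5:18451415-18451431 (minus), the fourth at chr1:273748232-273748248 (plus) and the fifth at chr7:25237952-25237968 (plus).
RARA: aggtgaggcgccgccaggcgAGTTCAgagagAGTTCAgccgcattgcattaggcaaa
RARB: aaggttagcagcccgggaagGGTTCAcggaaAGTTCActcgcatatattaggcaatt
RARG: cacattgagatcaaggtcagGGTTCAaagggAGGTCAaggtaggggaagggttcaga
RXRA: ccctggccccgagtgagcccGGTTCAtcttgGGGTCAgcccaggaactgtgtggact
RXRB: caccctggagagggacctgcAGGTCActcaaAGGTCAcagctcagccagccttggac

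All 5 matches lie in introns of the RefSeq gene models, and the one in RXRB is on the strand opposite to the gene. The RARG match overlaps a repeat with a spacer of 1 base. The RARB match starts 163 bases after the annotated start of the gene, the closest of the 5. The others start 4874 bases (RXRB), 7194 bases (RARG), 21817 bases (RARA) and 49390 bases (RXRA) after it. Long genes hold such a repeat more often by their length. Among genome windows as long as the searched RARB region, 48.3% held at least 1. The share was 33.1% at the length of RXRA, 16.6% at that of RARA, 11.5% at that of RARG and 6.19% at that of RXRB. For the genes that held none it was 34.3% (ALDH1A2), 21.3% (ALDH1A1), 10.7% (CYP26B1), 6.08% (CRABP1) and 5.77% (CRABP2). With a spacer of 1 base the searched regions of RARA, RARG, RXRA and RXRB held 1 repeat each. Of genome windows of those lengths 16.9%, 11.7%, 33.4% and 6.29% held at least 1. The region of RARB held none with that spacer, at a window share of 48.1%. With a spacer of 2 bases only the region of RARB held 1, at a window share of 37.4%. The promoter windows ran from 250 bases before to 50 bases after the outermost annotated start of each gene. Within them none of the 10 genes held a repeat with a spacer of 1, 2 or 5 bases. Such repeats stood in 0.148%, 0.0511% and 0.046% of 19557 pig promoters of that length. Promoters further inside a gene lie outside these windows. The windows therefore do not show whether an inducible promoter of a receptor gene holds a repeat. A match is a description of letters, not evidence of binding.

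The libraries held between 15983390 and 18500447 expected counts. ZBTB16 itself was low, at 1.77 and 1.76 FPKM (fragments scaled by transcript length and library depth) in the controls and 1.37 and 1.34 in the knockdown. It fell by 0.36 on the log2 scale (SE 0.11, edgeR adjusted p = 0.00338), a call made neither by DESeq2 (adjusted p = 0.083) nor by limma on log2(FPKM + 1) (0.0685), on log2(FPKM + 0.1) (0.0719) or on log2(TPM + 1) (0.338). The labelled cell type was checked against markers. Germ cell transcripts were present, among them DDX4 at 1.86 to 2.3 FPKM, but NANOS2 and STRA8 had at most 3 counts in any library. Sertoli cell markers summed to 2776 to 2947 FPKM and peritubular smooth muscle markers to 6087 to 6500, against 168.6 to 206.8 for the 18 germ cell markers measured. The values below are therefore those of a mixture, in which fewer cells of a type and less RNA per cell cannot be told apart. Fragments averaged 325.74 and 326.74 bases in the controls and 266.36 and 267.35 bases in the knockdown, a difference that cannot be told apart from the treatment.

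Of the 10 genes, RARA, RARB and CYP26B1 rose in the knockdown and RXRB and ALDH1A2 fell. Another 4 did not pass the test, and CRABP2 had too few counts to be tested. Rose and fell are used of genes with an edgeR adjusted p under 0.05 over all genes tested. The background of that rule was high: 22.7% of 15763 tested genes were called higher and 23.8% lower. A count of 3 higher and 2 lower among 9 tested genes is therefore close to what the whole table holds. The changes were also modest. Called members ranged from RXRB at -0.52 to RARB at 0.49 on the log2 scale. The median size of change over all tested genes was 0.21 on the log2 scale.

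**Figure D1:**
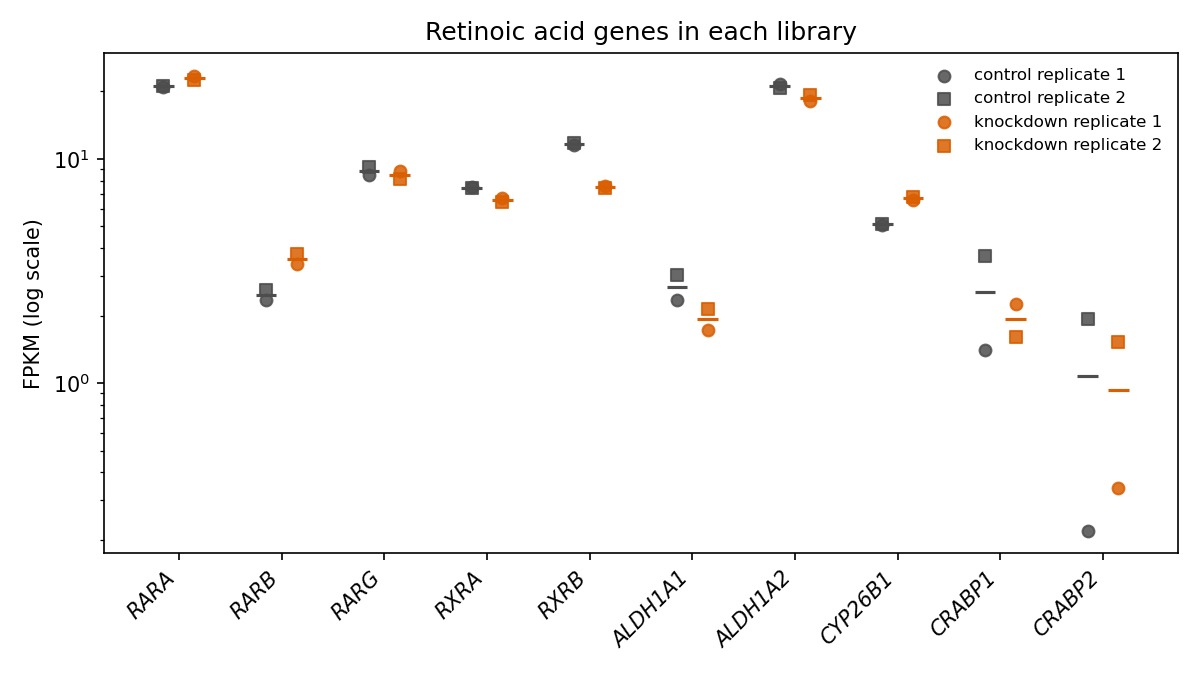
FPKM of the 10 genes on a log axis, with 1 point for each library and a short line at each group mean of 2 libraries. RARA and ALDH1A2 sit near 20 FPKM. In FPKM the groups do not overlap for RARA, RARB, RXRA, RXRB, ALDH1A1, ALDH1A2 and CYP26B1, of which RXRA and ALDH1A1 did not pass the test. In FPKM they overlap for RARG, CRABP1 and CRABP2. The FPKM of the whole library was also lower in the knockdown (634962 and 632881, against 739808 and 742383 in the controls). In TPM the groups overlap for ALDH1A1 and ALDH1A2, and RXRA and RARG lie higher in both knockdown libraries. How often other genes separate the groups was not counted.

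In the controls ALDH1A2 (21.14 ± 0.636 FPKM, SD, n = 2) and RARA (21.04 ± 0.113) stood highest and did not differ beyond their spread. RXRB followed at 11.6 ± 0.205, then RARG at 8.84 ± 0.488 and RXRA at 7.44 ± 0.0212. CYP26B1 stood at 5.12 ± 0.0354. The genes below it, ALDH1A1 (2.69 ± 0.481), CRABP1 (2.55 ± 1.61) and RARB (2.47 ± 0.184), could not be ordered within their spread, and CRABP2 was at 1.08 ± 1.22. FPKM is scaled by transcript length, so these levels can be set side by side within a library.

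RARA encodes the retinoic acid receptor that in mouse testis is best known from Sertoli cells. The gene lies on the minus strand of chromosome 12 from 22047449 to 22085759. Its FPKM was 20.96 and 21.12 in the controls and 23.45 and 22.41 in the knockdown. Both knockdown libraries were above both controls, and the counts behind them were 1081, 1008, 1327 and 1133. RARA rose 1.13-fold (log2 fold change 0.18, SE 0.05, adjusted p = 0.000762). This small rise lost its call with limma on log2(FPKM + 1), where it measured 0.12 on the log2 scale (adjusted p = 0.0676).

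RARB is the receptor gene best known for being switched on by retinoic acid itself (plus strand of chromosome 13, 12336387 to 12507688). It was the least abundant of the RAR genes, at 2.34 and 2.60 FPKM in the controls and 3.38 and 3.78 in the knockdown. The groups did not overlap. RARB rose 1.41-fold (log2 0.49, SE 0.13, adjusted p = 0.000688). Its 115, 118, 165 and 176 counts carry 95% Poisson intervals for counting error of 94.9 to 138, 97.7 to 141, 140.8 to 192 and 151 to 204. The libraries differ in depth. Scaled by library total (CPM), RARB stood at 6.65 and 7.38 in the controls and 8.92 and 10.6 in the knockdown.

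The tables list 2 transcripts for RARB, a RefSeq transcript of 2604 bases and an unannotated one. The deposited length of the gene, an average over its transcripts weighted by their estimated abundance, was 3163 bases in both controls and 2904 and 3082 bases in the knockdown libraries. If 3163 bases is the length of the unannotated transcript, the share of the RefSeq transcript was 0% in both controls. In the knockdown libraries it was then 46.3% and 14.5%. FPKM and TPM of RARB carry the deposited length, and the counts do not. The repeat printed above, at the start of RARB, lies in the first intron of the RefSeq transcript. Its place relative to the unannotated transcript was not determined.

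RARG is the receptor that in mouse testis is best known from spermatogonia (minus strand of chromosome 5, 18436267 to 18458625, given as a non-coding RNA gene in this annotation). Its FPKM was 8.49 and 9.18 in the controls and 8.86 and 8.15 in the knockdown. The groups overlapped, with the highest and the lowest value in a control and a knockdown library. The log2 change was -0.03 (SE 0.08, adjusted p = 0.782). On the TPM scale, which sets every library to the same sum of transcripts, it was 0.16 (limma on log2(TPM + 1), adjusted p = 0.101). The median of all genes was 0.15 on that scale, and RARG relative to it stood at 0.01.

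RXRA encodes a partner receptor shared by RARs, PPARs, liver X receptors and others (plus strand of chromosome 1, 273698842 to 273797622). It measured 7.45 and 7.42 FPKM in the controls and 6.70 and 6.41 in the knockdown. Both knockdown libraries were lower, yet the change did not pass (log2 -0.13, SE 0.07, adjusted p = 0.0977). With the trend of transcript length removed it passed, at a log2 change of -0.21 (adjusted p = 0.00494), and with the trend of GC content removed as well it did not (-0.0975, adjusted p = 0.217). In TPM the order of the groups turned, with 10.07 and 10 in the controls and 10.55 and 10.13 in the knockdown. Relative to the median of all genes on that scale, RXRA stood at -0.11.

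RXRB, another of the partner receptors, lies on the minus strand of chromosome 7 from 25236005 to 25242842. Its FPKM was 11.5 and 11.8 in the controls and 7.53 and 7.43 in the knockdown. The groups stood far apart relative to the spread within them. RXRB fell to 0.70 times the control level (log2 -0.52, SE 0.08, adjusted p = 3.14e-09), with 463 and 442 counts against 354 and 305. It kept its direction and its call in each alternative run, with log2 changes from -0.63 to -0.38.

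**Figure D2:**
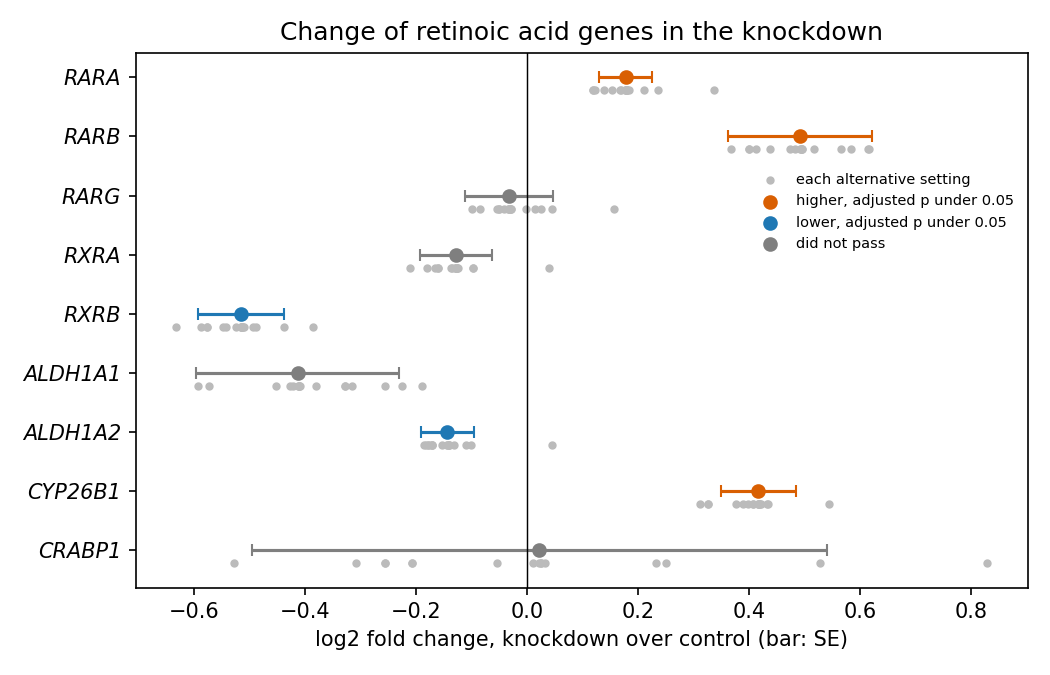
Log2 fold change of the 9 tested genes, knockdown over control. Large points are the edgeR fit with its standard error, and small grey points are the alternative settings. RXRB stays left of 0, and CYP26B1, RARA and RARB stay right of it, under each setting drawn, while RARG, RXRA, ALDH1A2 and CRABP1 have points on both sides.

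Within the receptor families the share of RARA overlapped between the groups, while those of RARB, RARG, RXRA and RXRB did not. RARA held 65.9% and 64.2% of the summed TPM of the 3 RAR genes in the controls and 65.7% and 65.3% in the knockdown. RARB held 7.37% and 7.90%, then 9.47% and 11%, and RARG 26.7% and 27.9%, then 24.8% and 23.7%. RXRB held 56.9% and 58.9% of the RXR family in the controls and 51.1% and 50.5% in the knockdown. The share of RXRA went from 36.9% and 37.0% to 45.4% and 43.5%. RXRG, the remaining member of the RXR family and mostly known from muscle and brain, stood at 1.26, 0.83, 0.52 and 0.89 FPKM and did not pass (log2 -0.40, adjusted p = 0.312). The summed TPM of the RXR family was 27.3 and 27 in the controls and 23.2 and 23.3 in the knockdown. For the RAR family the sums were 43.0 and 44.3, against 56.2 and 54.2. Sums of TPM carry the shift of that scale, on which the median log2 change of all genes was 0.15 (limma on log2(TPM + 1)). Shares and sums have no test here.

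**Figure D3:**
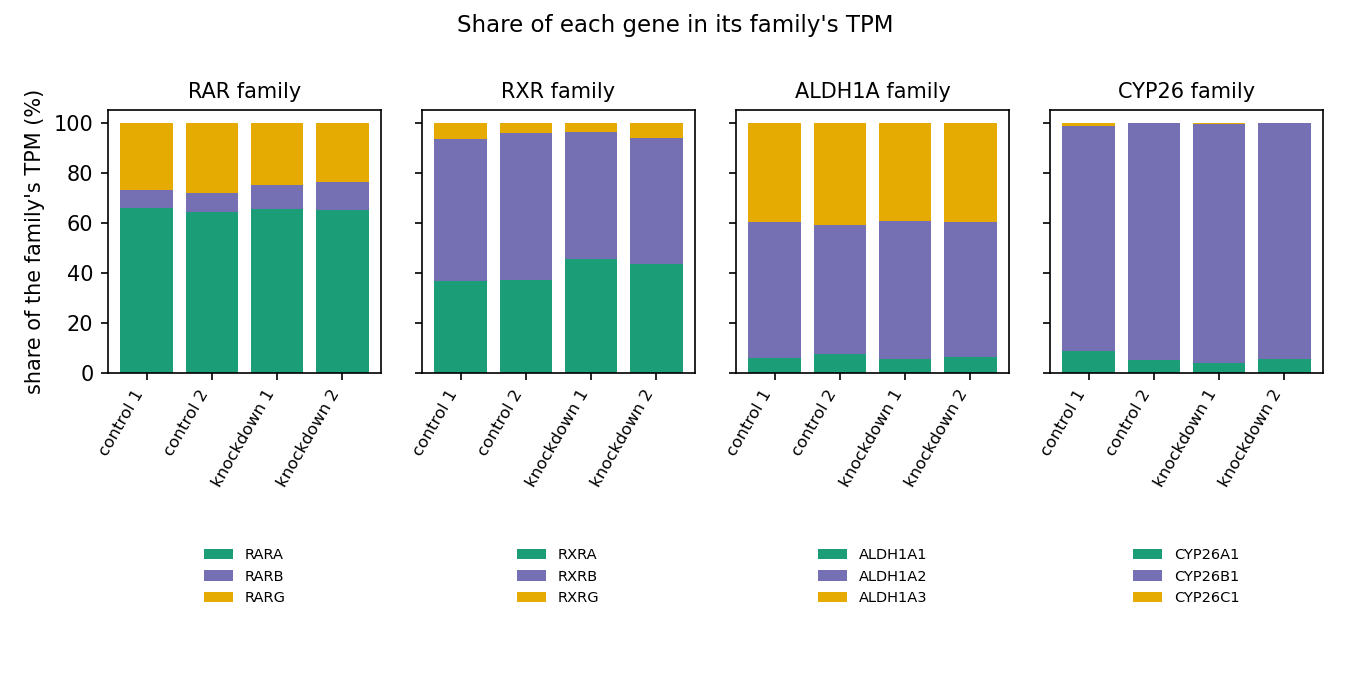
Share of each gene in the summed TPM of its family, in percent, with 1 bar for each library. RXRB is the larger part of the RXR bars in every library and RXRA takes more of the bar in the knockdown. CYP26B1 fills 90.1% or more of each CYP26 bar.

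ALDH1A2 oxidises retinaldehyde to retinoic acid and is the enzyme most associated with germ cells of the mouse testis (plus strand of chromosome 1, 113932722 to 114037059). Its FPKM was 21.6 and 20.7 in the controls and 18.1 and 19.3 in the knockdown, without overlap. It fell to 0.91 times the control level (log2 -0.14, SE 0.05, adjusted p = 0.00931). That call rested on the setting. DESeq2 gave an adjusted p of 0.129, and edgeR gave 0.164 without control replicate 1 and 0.176 without knockdown replicate 1. In TPM the groups overlapped (29.2, 27.9, 28.5 and 30.4) and the log2 change was 0.0446, which is -0.10 relative to the median of all genes on that scale.

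ALDH1A1, the enzyme of this family best known from Sertoli cells (minus strand of chromosome 1, 226163347 to 226217342), was about an order of magnitude less abundant than ALDH1A2. It measured 2.35 and 3.03 FPKM in the controls and 1.72 and 2.15 in the knockdown. In FPKM both knockdown libraries were below both controls. In TPM the groups overlapped, at 3.18 and 4.08 in the controls and 2.71 and 3.4 in the knockdown. The log2 change there was -0.19 (limma on log2(TPM + 1), adjusted p = 0.306), which is -0.34 relative to the median of all genes. By counts the log2 change of -0.41 (SE 0.18) just missed the threshold with an adjusted p of 0.0539. It passed without control replicate 1 (-0.59, adjusted p = 0.0214) and without knockdown replicate 2 (-0.57, adjusted p = 0.041). Without control replicate 2 it was -0.22 (adjusted p = 0.481) and without knockdown replicate 1 it was -0.26 (adjusted p = 0.372). With 59 to 87 counts a library, a change of this size was at the limit of what the depth could show.

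ALDH1A3, the remaining enzyme of the family, stood between them at 15.8 and 16.4 FPKM in the controls and 12.8 and 14.1 in the knockdown, and it fell (log2 -0.22, adjusted p = 0.000304). It lost the call without knockdown replicate 1, with limma without a filter on low values and on the TPM scale. By TPM, ALDH1A2 held 51.5% to 55.4% of the family in the 4 libraries, ALDH1A3 39.3% to 40.9% and ALDH1A1 5.27% to 7.54%. The shares of ALDH1A1 and ALDH1A2 overlapped between the groups, and that of ALDH1A3 was slightly lower in both knockdown libraries (39.3% and 39.7%) than in the controls (39.8% and 40.9%). The summed TPM of the family overlapped as well, at 53.8 and 54.1 in the controls and 51.4 and 56.1 in the knockdown. That was beside a median log2 change of 0.15 for all genes on the TPM scale.

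CYP26B1 hydroxylates retinoic acid for breakdown (plus strand of chromosome 3, 70573551 to 70593416). Its FPKM was 5.09 and 5.14 in the controls and 6.58 and 6.76 in the knockdown. The 2 libraries of each group lay close together and the groups far apart. CYP26B1 rose 1.33-fold (log2 0.42, SE 0.07, adjusted p = 3.72e-08), from 447 and 417 counts to 625 and 575. Like RXRB, it kept its direction and its call in each alternative run, with log2 changes from 0.31 to 0.54.

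It was also nearly the only CYP26 gene measured. CYP26A1, the family member best known for induction by retinoic acid in liver and embryo, stood at 0.50, 0.27, 0.28 and 0.38 FPKM. That change did not pass (log2 -0.11, adjusted p = 0.86). CYP26C1 had too few counts to be tested. CYP26B1 held 90.1% and 95.1% of the summed TPM of the family in the controls and 95.6% and 94.7% in the knockdown.

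CRABP1 and CRABP2 carry retinoic acid inside the cell, CRABP2 towards the nucleus. They lie on chromosome 7 (minus strand, 47602316 to 47608865) and chromosome 4 (plus strand, 93388198 to 93393861). Both were near the limit of detection. CRABP1 had 5, 12, 11 and 7 counts, or 1.41, 3.69, 2.25 and 1.61 FPKM, and the lowest and the highest value were both controls. Its log2 change of 0.02 had an SE of 0.52 (adjusted p = 0.977), so a change up to about the size of the others was not detectable at this depth. CRABP2 had 1, 8, 2 and 8 counts and the second library of each group was the higher one. Their transcripts of 529 and 584 bases are the shortest of the 10, and short transcripts are the ones whose FPKM depends most on the fragment length that differed between the groups.

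Other genes of the route were read from lists chosen by their textbook role. Each list's count stands beside the 22.7% of all tested genes called higher and the 23.8% called lower. Among genes of retinoid storage, oxidation and interconversion, 14 of 24 were tested, of which 8 fell, 1 rose and 5 did not pass (median log2 -0.26, against -0.00082 for all genes). ADH5, an alcohol dehydrogenase, fell from 97.0 ± 2.98 to 66.8 ± 1.80 FPKM (log2 -0.44). DHRS4, a retinal reductase, fell from 38.5 ± 1.42 to 21.6 ± 0.714 (log2 -0.73). RETSAT, which saturates retinol, fell by 0.28 on the log2 scale. The 1 that rose was RDH10, which makes the retinaldehyde that ALDH1A enzymes use, from 10.8 ± 0.212 to 12.4 ± 0.297 FPKM (log2 0.24, adjusted p = 0.000177). DESeq2 called 4 of the 14 lower in place of 8, and on the TPM scale 2 of 12 were called lower.

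Of 6 tested genes of retinoid transport and binding, 3 fell and 3 did not pass (median log2 -0.34). FABP5, a fatty acid carrier that can hand retinoic acid to PPARD, went from 54.6 ± 3.19 to 31.0 ± 2.98 (log2 -0.58), and RBP5 from 5.41 ± 0.382 to 1.88 ± 0.0212 (log2 -1.39). RBP4, the plasma carrier, did not pass (log2 -0.19, adjusted p = 0.417). Genes of this list are short, with a median transcript of 870 bases against 3077 for all genes. After removal of the trends of length and of GC content only 1 of the 6 was called lower, and FABP5 stood at -0.18 (adjusted p = 0.103).

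The corepressors and coactivators of RARs moved the other way. All 17 were tested, of which 14 rose and 3 did not pass (median log2 0.33). EP300 and CREBBP, histone acetyltransferases recruited by liganded receptors, rose 1.49-fold and 1.48-fold, from 17.1 ± 0.325 to 25.01 ± 0.0283 FPKM and from 15.8 ± 0.0283 to 23.0 ± 0.0919. NRIP1, a corepressor recruited by liganded receptors, rose 1.36-fold from 9.12 ± 0.134 to 13.3 ± 0.495. Coactivators and corepressors were both among them. These are long genes, with a median transcript of 6680 bases. With the length trend removed 13 were still called higher and the median was 0.20. With limma on log2(FPKM + 1) 14 of 16 were higher and 1 was lower.

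Among RXRG and other receptors that pair with RXRs, 1 of 11 tested genes rose, 3 fell and 7 did not pass (median log2 -0.15). PPARD rose (0.22), while NR4A2 (-0.33), NR1H3 (-0.24) and NR1H2 (-0.15), the last being liver X receptors, fell. NR1H3 stood at 0.0803 and NR1H2 at 0.0125 on the TPM scale, so the direction of those small changes depended on the scale. With DESeq2 PPARD (adjusted p = 0.0568) and NR1H2 (adjusted p = 0.139) lost their calls, and PPARD also lost it with limma on log2(FPKM + 1) (adjusted p = 0.0569). Of 5 tested genes in the list of other breakdown enzymes, POR, the electron donor of P450 enzymes, rose (0.15). POR lost that call with limma on log2(FPKM + 1), with a filter (adjusted p = 0.123) and without (0.197), and on log2(FPKM + 0.1) (0.124). CYP1B1, a P450 gene abundant at 175 ± 1.51 FPKM, fell to 158 ± 5.92 (-0.14). Its place in this list does not show that it breaks down retinoic acid, so its fall is not a reading of breakdown. CYP1B1 was at 0.0785 on the TPM scale.

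Textbook targets of retinoic acid showed no common direction. Among 20 tested genes there were 5 that rose, 4 that fell and 11 that did not pass (median log2 0.03). GATA6, a transcription factor of Sertoli and other somatic cells, rose 1.37-fold from 24.7 ± 0.0212 to 33.3 ± 0.198 FPKM. RARRES1 rose 1.12-fold, and NRIP1, described above, stands in this list too. Beside them the log2 changes of RARB (0.49) and CYP26B1 (0.42) were of the size of GATA6 (0.45) and NRIP1 (0.44), while CYP26A1 did not pass and STRA8, the classical germ cell target, had 0, 1.11, 1 and 0 expected counts.

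Of 9 tested genes of the spermatogonial response, 3 rose and 6 did not pass (median log2 0.12). Over all tested genes 22.7% were called higher, so this count is near the background. KIT, the receptor that marks differentiating spermatogonia, was at 6.75 and 7.18 FPKM in the controls and 7.69 and 7.78 in the knockdown (log2 0.23, adjusted p = 0.00196). CCND2, a cyclin, rose by counts (log2 0.16) but was lower in FPKM, at 13.3 and 14.8 against 12.1 and 12.2. An edgeR fit offset by effective length called it lower (-0.15, adjusted p = 0.0345). SALL4, which completes the 3 and is named for that reason after its values were seen, was at 0.25 and 0.27 against 0.51 and 0.51 FPKM. DMRT1 (0.31, adjusted p = 0.109) and SYCP3 (-0.17, adjusted p = 0.469) did not pass. With the length trend removed DMRT1 passed (0.39, edgeR adjusted p = 0.0413), and also with limma on log2(TPM + 1) (0.39, adjusted p = 0.03). DESeq2 called 0 of 8 genes of this list, with 3 higher at an unadjusted p under 0.05, and limma on log2(FPKM + 1) called 0 of 6, with 1 lower at that unadjusted threshold.

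Markers of somatic cells also differed between the groups, beside 22.7% of all tested genes called higher and 23.8% called lower. Of 13 tested Sertoli cell markers 6 rose and 3 fell, and their summed FPKM was 2804 and 2776 in the controls and 2947 and 2919 in the knockdown. SOX9 rose 1.45-fold, CLDN11 1.42-fold, FSHR 1.29-fold and GATA4 1.26-fold by counts. The 3 that fell, named after their values were seen, were AMH (log2 -0.64), DHH (-0.69) and NR5A1 (-0.44). Of 7 peritubular markers 5 rose and 2 fell, with sums of 6500 and 6422 against 6212 and 6087. Leydig cell markers summed to 242 and 237.3 against 202.5 and 213, fibroblast and stromal markers to 3592 and 3584 against 3383 and 3348, and macrophage markers to 35.4 and 39.6 against 24.8 and 27.6. The FPKM of the whole library was also lower in the knockdown, at 739808 and 742383 in the controls and 634962 and 632881. In TPM the peritubular sums were 8786 and 8650 against 9783 and 9618 and the stromal sums 4855 and 4828 against 5328 and 5290, the opposite order, and of 8 stromal markers 5 were then called higher, against 1 higher and 5 lower by counts. Leydig sums overlapped in TPM. The Sertoli sums in TPM were 3791 and 3739 in the controls and 4642 and 4612 in the knockdown. All of these TPM sums stand beside a median log2 change of 0.15 for all genes on that scale. The part of these cell types in the changes of the retinoic acid genes was not tested.

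Germ cell markers had calls in both directions. With 16 tested, 5 rose and 2 fell, beside 22.7% of all tested genes called higher and 23.8% called lower. TEX15, needed for germ cell DNA repair, rose 1.39-fold and DAZL, an RNA-binding protein of germ cells, 1.46-fold. DND1, a germ cell RNA-binding protein, fell to 0.41 times the control level and UCHL1 to 0.79 times. Their summed FPKM was 206.8 and 205.8 in the controls and 177 and 168.6 in the knockdown, of which UCHL1, also expressed by other cell types, made up 121.7, 120.4, 89.0 and 85.2. In TPM the sums overlapped, at 279.5 and 277.3 against 278.8 and 266.5. DDX4, a defining germ cell gene, did not pass (log2 -0.12, adjusted p = 0.601).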

How the data were processed

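RNA from 2 control and 2 ZBTB16 knockdown samples was analysed, grouped by the genotype label. Per the labels' protocols, SOAPnuke 2.1.0 cleaned the reads, HISAT2 2.2.1 placed them on the pig genome Sscrofa 11.1 and bowtie2 2.3.5 on its transcripts. With RSEM 1.3.3 the authors estimated counts (RSEM's expected counts), which are estimates shared among transcripts. The authors deposited expected counts, FPKM (scaled by transcript length and depth) and TPM (scaled to an equal sum in each library). A strand setting of the counting is not given in the sources used. No other annotated gene overlaps any of the 10 genes.

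Expected counts were rounded (83.7% to 84.7% of values above 0 were whole already) and tested with edgeR 4.0.16 (TMM scaling, filterByExpr with minimum count 10 and minimum total count 15, two-sided quasi-likelihood test) in R 4.3.3, with Benjamini-Hochberg adjustment over all 15763 genes. All adjusted p-values are from edgeR unless another tool is named. The fit was checked on simulated data. Means ± SD of FPKM are over 2 libraries. With 2 against 2 the smallest two-sided exact permutation p is 0.333, which is why edgeR borrows the spread of all genes. Intervals cover counting error only. Alternatives were DESeq2 1.42.0, 2 other scalings, no low-count filter, limma 3.58.1 on log2(FPKM + 1), with and without a filter (FPKM of at least 1 in 2 libraries), and on log2(FPKM + 0.1), a replicate block, effective length offsets, trends of length and of length with GC content removed (mgcv 1.9.3), each library left out and an unadjusted threshold. Limma on log2(TPM + 1) and the search for repeats around whole genes were chosen after seeing the data.

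The 10 genes and all lists were chosen with earlier results of these data known. Named from each list were up to 4 genes by smallest p, provided that the group with more had a mean FPKM of 1 or more, and CYP26A1, CYP26C1, RXRG, ALDH1A3, STRA8 and ZBTB16 in any case, except that some genes are not reported here. DDX4, NANOS2 and SALL4 were named in addition, after their values were seen. Of Leydig, peritubular, stromal and macrophage markers only counts and sums are given. Of 5 endothelial markers tested 1 fell. List genes without a row or with several rows (NR4A1, HOXB4, HOXD4, PLAAT4, MEIOSIN, NANOS3 and MAGEB16) were left out. RDH8, TTR, HOXB1 and UCP1 were at 0 in every library.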

Additional observations from a re-analysis of the deposited data

How the results depend on the processing

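RXRB and CYP26B1 kept direction and call under each of the 17 alternatives run. Of the members 3 were called higher and 2 lower. The exceptions were 1 lower with DESeq2 and on log2(TPM + 1), 2 higher with limma on log2(FPKM + 1) and log2(FPKM + 0.1), 1 higher and 1 lower with limma on log2(FPKM + 1) without a filter, and 3 lower without the low-count filter, with the length trend removed and at the unadjusted threshold. Leaving out 1 library gave 3 higher throughout and 1 to 3 lower, the 1 being without knockdown replicate 1 and the 3 without knockdown replicate 2. Over all genes 3574 rose and 3745 fell. DESeq2 gave 2335 and 2463, limma 2038 higher on log2(FPKM + 1), 2034 on log2(FPKM + 0.1) and 1421 without a filter, and 5449 higher and 1898 lower on log2(TPM + 1). Of called genes 48.8% were higher, against 34.4% by limma on log2(FPKM + 1) and 74.2% on log2(TPM + 1), where the median of all genes moved to 0.15. Of 77 genes tested in the 7 lists of the route, markers apart, 42 were called (54.5%, against 46.4% of all genes), and 22 with limma without a filter.

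Several changes turned sign. CRABP1 was at -0.21 on log2(FPKM + 1), filtered or not, -0.26 (FPKM + 0.1), -0.0546 (TPM) and -0.31 (effective length). CCND2 was at -0.19 on log2(FPKM + 1), filtered or not, -0.20 (FPKM + 0.1) and -0.15 (effective length, where it was called lower with an adjusted p of 0.0345). RBP4 was at 0.0443 with the length trend removed and 0.11 with GC content as well, SYCP3 at 0.0154 with the length trend removed, and RARG at 0.0445 and NR1H2 at 0.0321 with both trends removed. On log2(TPM + 1) RARG was at 0.16, RXRA at 0.0391, ALDH1A2 at 0.0446, CYP1B1 at 0.0785, NR1H3 at 0.0803 and NR1H2 at 0.0125. Leaving out 1 library gave -0.53 to 0.83 for CRABP1, -0.10 to 0.025 for RARG, -0.54 to 0.0612 for RBP4 and -0.45 to 0.19 for CYP26A1. The cause of these differences was not tested.

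Same-numbered libraries did not deviate together (correlation 0.00036 over 15763 genes), so the numbers were not taken as pairs. With the replicate number as a block 3 members were higher and 2 lower, and 3674 and 3806 genes over all. The depth limits CRABP1 and CRABP2, with 1 to 12 counts, and leaves ALDH1A1 at the threshold.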
